A study of Canis lupus familiaris with 8 samples.

Results

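PPP5C encodes protein phosphatase 5 (PP5), and its transcript was followed in dog hearts on Affymetrix canine arrays. It was read by the single probe set, 1584210_at, to which the platform annotation gives PPP5C as the only symbol, so that it is 1 of 6540 genes named in this way and 1 of 23913 probe sets on the array. Its gene identifier matched PPP5C in the RefSeq gene table. Total RNA came from cardiac tissue of 8 male dogs of 23 to 27 kg, with 1 array per dog. In 4 of them hyperhomocysteinemia (HHcy), an excess of the amino acid homocysteine in the blood, had been brought about by adding methionine to what they drank over 2 weeks, and the other 4, with no such treatment in the labels, were controls. The labels name neither the chamber of the heart nor the breed or age, and they do not state how high homocysteine rose.

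PP5 is a serine/threonine phosphatase of the PPP family. It carries its catalytic domain and a tetratricopeptide repeat (TPR) domain in 1 polypeptide, and the TPR domain folds over the active site and holds the enzyme at low activity until it binds the chaperone HSP90. Through HSP90 it meets kinases and steroid receptors, among them the glucocorticoid receptor NR3C1 and the stress kinase ASK1 (gene MAP3K5), and in heart muscle it is known to remove phosphate groups from the spring region of titin.

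PPP5C was selected on this same contrast: among the probe sets that were lower in HHcy and carried 1 symbol, it stood in place 1 by unadjusted limma p. Its own values are therefore given as a description without a test. In the comparison over all 14301 probe sets bright enough to be tested it did not pass Benjamini-Hochberg adjustment (limma adjusted p 0.0863). No probe set passed as lower in HHcy and 14 passed as higher, which is 0.0979% of those tested (849, or 5.94%, were lower and 1700 higher at an unadjusted p under 0.05).

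The PPP5C signal, a MAS5 probe set intensity in arbitrary units on a linear scale, was 184.9 on control 1, 161.3 on control 2, 215.1 on control 3 and 143.8 on control 4. It was 28.6 on HHcy 5, 15.8 on HHcy 6, 38.6 on HHcy 7 and 8.44 on HHcy 8. Every HHcy array lay below every control array, and the lowest control signal was 3.73 times the highest HHcy signal. The same order without overlap was seen in 3.89% of the probe sets tested, and since PPP5C was picked on this contrast nothing is read from it here.

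The control dogs were alike: their signals spanned 143.8 to 215.1, and their mean was 176 ± 30.9 (SD, n = 4). The HHcy dogs were spread more widely, their highest signal being 4.57 times their lowest, around a mean of 22.8 ± 13.4 (SD, n = 4). On the scale of log2(signal + 24), the control mean was 7.63 ± 0.22 and the HHcy mean 5.50 ± 0.42 (SD, n = 4 each). The difference was -2.13 ± 0.40 (limma SE), or 4.37-fold lower in HHcy. Of all probe sets tested, 26 had a log2 fold change at least as low, 0.182% of them, and 11 of those, 0.0769% of the probe sets tested, had groups that did not overlap.

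**Figure D1:**
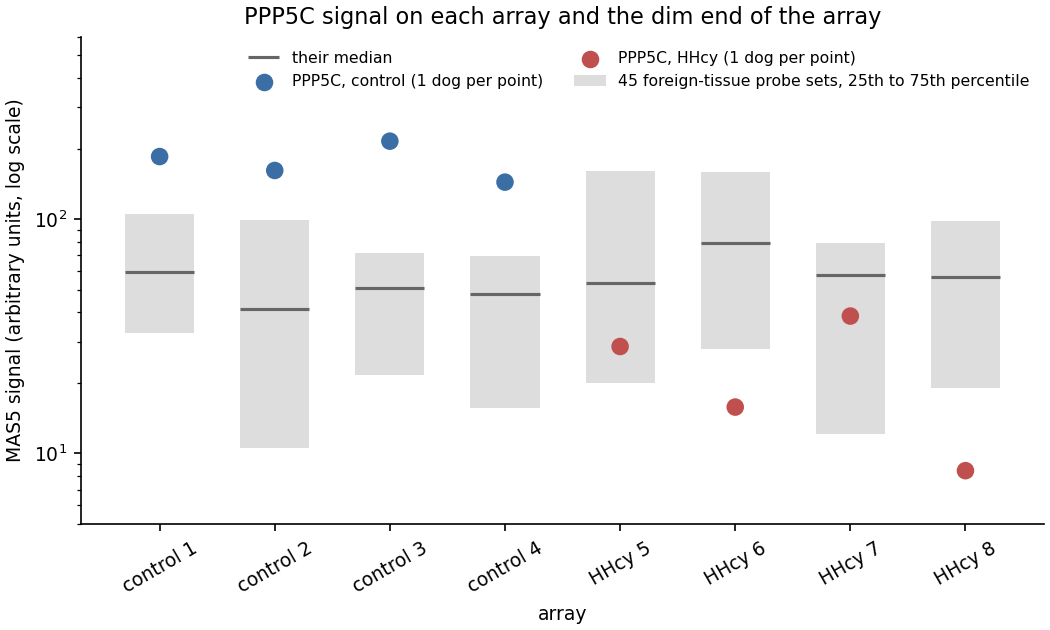
Signal of the PPP5C probe set on each of the 8 arrays (points, 1 dog each, log scale) over the range of 45 probe sets of genes typical of other tissues (grey bars, 25th to 75th percentile, with the median as a line). Controls lie from 143.8 to 215.1, above the grey bars, while HHcy arrays lie from 8.44 to 38.6, below the line on each of the 4.

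The HHcy signals lay at the dim end of the arrays, where a fold says little. No detection calls were used here, so 45 probe sets of 29 genes typical of retina, pancreas, pituitary, milk, tooth, stomach, liver and other tissues were taken as a yardstick for dim signals. Some of them can carry real signal, since 14 of the 29 genes had a probe set bright enough to be tested. Their median signal was 49.9 ± 7.49 on the controls and 61.6 ± 11.6 on the HHcy arrays (SD, n = 4 each). PPP5C was above 43, 41, 43 and 42 of the 45 on control 1 to control 4, but above 15 on HHcy 5, 8 on HHcy 6, 17 on HHcy 7 and 6 on HHcy 8. The control signal was 2.99 to 4.22 times the median of these probe sets, and the HHcy signal 0.149 to 0.665 times.

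The HHcy mean also lay under the pseudocount of 24, so that the fold depends on how dim values are handled. A pseudocount of 6 gave a log2 difference of -2.77, and a pseudocount of 96 gave -1.20. When each array's PPP5C value was raised to at least the median of the 45 probe sets on that array, the difference was -1.22 ± 0.14 (SE), 2.33-fold. This alternative replaced every HHcy value, so for HHcy the SE holds the spread of the yardstick and not that of PPP5C. That alternative was chosen after seeing the data. The groups did not overlap, and every control signal lay above the yardstick median of every array. None of these settings could therefore turn the direction, and nothing is read from its staying the same. How far below the yardstick the transcript lay in HHcy could not be measured.

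Whether PPP5C was tested at all rested on the controls. Probe sets were kept by their mean log2 value over all arrays, and PPP5C, at 6.57 against a limit of 6.55, was brighter than 127 of the 14301 that were kept. Its mean was 7.63 over the controls alone and 5.50 over the HHcy arrays alone, so it was kept through the group in which it was high. When any 1 of the 4 control arrays was left out it fell under the limit, and it stayed above it when any 1 HHcy array was left out.

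Ranks on each array tell the same order without any scaling or pseudocount. PPP5C stood at percentile 62.4, 59.6, 68.3 and 61.5 of the 23836 non-control probe sets on control 1 to control 4. It stood at percentile 18.8 on HHcy 5, 9.08 on HHcy 6, 28.2 on HHcy 7 and 5.92 on HHcy 8. PPP5C was above the middle of every control array and in the lower part of every HHcy array, and on average it dropped by 47.5 percentile points (from 63.0 ± 3.74 to 15.5 ± 10.1, SD, n = 4 each).

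RNA quality and cell content differed between arrays, and both are given beside PPP5C. The ratio of 3' to 5' probe signals, which rises when RNA is degraded, was 15.3 for actin and 17.2 for GAPDH on HHcy 5, and 599.6 and 10.5 on HHcy 6. It was 2.67 and 5.14 on HHcy 7 and 1.69 and 3.56 on HHcy 8, against 0.378 to 2.49 for actin and 1.46 to 3.76 for GAPDH on the controls. PPP5C had a log2 difference of -2.14 ± 0.45 (limma SE) when HHcy 5 and HHcy 6 were left out, and with that ratio, averaged over both genes on the log2 scale, as a covariate it was -2.15 ± 0.54 (limma SE). The HHcy values of PPP5C all lay below the yardstick median, and it was picked on this contrast, so nothing is read from these values. The part of RNA quality in the PPP5C difference was not tested.

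Cardiomyocyte markers, 9 of 12 of which were on the array and tested, were bright in the controls, as in the light chain MYL3 with a mean signal of 19006. Their median log2 difference from the control mean was -4.73 on HHcy 6, whereas the remaining HHcy arrays ran from -0.16 to 0.040 and the controls from -0.31 to 0.37. On HHcy 6 each of the 9 was lower than on any other array, but unequally: TNNT2 and MYL3 were at 24.5 and 27.4, TNNI3 at 393, MB at 728, ACTC1 at 1277, MYL2 at 3542 and MYH7 at 6889. TNNT2 and MYL3 thus lay below the yardstick median of that array, 78.8. The rest of the 9 lay above it at reduced signals, with TNNC1 at 989 and CKMT2 at 699. Without HHcy 6 alone the PPP5C difference was -2.06 ± 0.42 (limma SE), and nothing is read from that either.

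**Figure D2:**
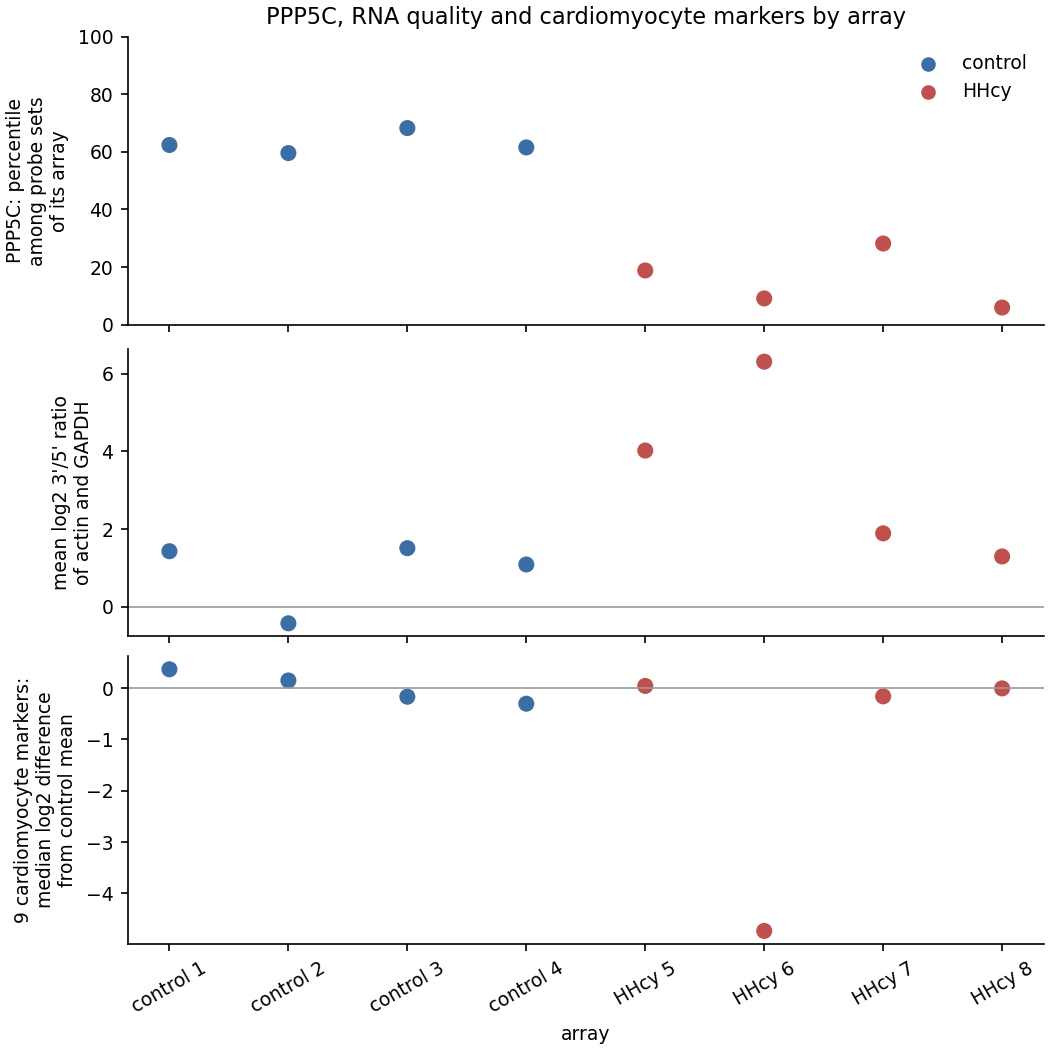
For each array (1 dog each), the percentile of PPP5C among the probe sets of that array, the 3'/5' ratio averaged over actin and GAPDH on the log2 scale, and the median log2 difference of 9 cardiomyocyte markers from their control means. HHcy 6 stands apart in the lower panels, with 6.31 and -4.73, while PPP5C is at percentile 28.2 or lower on all 4 HHcy arrays.

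Markers of other cell types were followed on the same arrays. All 10 macrophage markers lay above 0 in log2 fold change, around a median of 1.24, with array medians of 0.72 to 1.51 in HHcy and -0.23 to 0.22 in controls. The 5 fibroblast markers had a median of 1.59, with array medians of 0.34 to 2.31 in HHcy and -0.96 to 0.48 in controls. The 4 smooth muscle and 2 adipocyte markers had medians of 1.30 and 1.90, with HHcy 6 highest at 3.79 and 4.14, and without HHcy 6 the medians were 0.44 and 1.15. The 3 endothelial markers had a median of 0.20. None of these markers passed limma's adjusted threshold over all probe sets, and 8 of the 10 macrophage markers and 4 of the 5 fibroblast markers were higher at an unadjusted p under 0.05, as were 11.9% of all probe sets tested. In bulk tissue fewer cells of a type and less RNA per cell cannot be told apart, and the part of these markers in the PPP5C difference was not tested.

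PPP5C was set beside the genes it works with, in 9 lists holding 186 genes. Of these, 109 were on the array and 91 were tested. With limma and Benjamini-Hochberg adjustment over all 14301 probe sets, 0 of the 91 rose and 0 fell against 0.0979% called in all. At an unadjusted p under 0.05, 6 of the 91 were higher and 7 lower, beside 11.9% higher and 5.94% lower among all probe sets. Every HHcy array lay below every control array for 2 of the 91 (NUDC and PIK3R1) and above for 2 (CDC16 and MAPK10). Among all probe sets tested these shares were 3.89% and 7.49%, and nothing is read from the 4 genes. The smallest adjusted p was 0.167. The lowest log2 fold change among them was -1.41, so none lay as low as PPP5C. Among all probe sets tested 0.182% lay that low, and PPP5C was picked on this contrast, so nothing is read from that. Medians of lists are to be read against the median over all probe sets, which was 0.15, and -0.15 with median scaling and 0.011 with quantile scaling.

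The closest relatives of PP5 are the other catalytic subunits of the PPP family, of which 9 of 12 were on the array and tested. Their median log2 fold change was -0.21, with 6 below 0 and 3 above, and none passed; the median was 0.11 without HHcy 5 and HHcy 6. PPP6C, the catalytic subunit of protein phosphatase 6, had signals of 1424, 2440, 1327 and 1870 on the controls and 965, 822, 1082 and 1383 on the HHcy arrays, so the groups overlapped at HHcy 8. Its log2 fold change was -0.70 ± 0.27 (limma SE, adjusted p 0.227). PPP3CB, a catalytic subunit of calcineurin, had -0.86 ± 0.34 (limma SE, adjusted p 0.237), with control 3 below HHcy 5 and HHcy 7, and another PPP3CB probe set had 0.50. The calcineurin subunits PPP3CC and PPP3CA had -0.57 and -0.21.

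The catalytic subunits of protein phosphatase 1 went different ways. PPP1CB had a log2 fold change of 0.73 ± 0.39 (limma SE, adjusted p 0.342), PPP1CA had -0.28, which turned to 0.15 without HHcy 5 and HHcy 6, and PPP1CC had -0.018. Those of protein phosphatase 2A had 0.085 for PPP2CA and 0.18 for PPP2CB, both of which were below 0 with median scaling (-0.22 and -0.12). Among 11 tested scaffold, regulatory and activator subunits of protein phosphatase 2A the median was -0.23 and none passed. The scaffold PPP2R1A, which PP5 can bind, had -0.95 ± 0.44 (limma SE, adjusted p 0.288), but -0.19 without HHcy 5 and HHcy 6, and its other probe sets had 0.034 and 1.02. The striatin STRN3 had -1.26 ± 0.51 (limma SE, adjusted p 0.241). Its value was -0.78 without HHcy 8 and -1.95 without HHcy 5 and HHcy 6, and another STRN3 probe set had -1.65. On the controls the STRN3 signals were 171, 326, 152 and 119. On HHcy 5 to HHcy 8 they were 120, 108, 64.4 and 7.38. The last lay below the yardstick median of that array, 56.5, where a fold says little. The 4 tested phosphatases of the unrelated PPM family lay between -0.13 and 0.14. The lowest p among them was that of PPM1G (0.14, limma adjusted p 0.792), which had -0.16 with median scaling and 0.98 on another probe set (limma adjusted p 0.162).

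**Figure D3:**
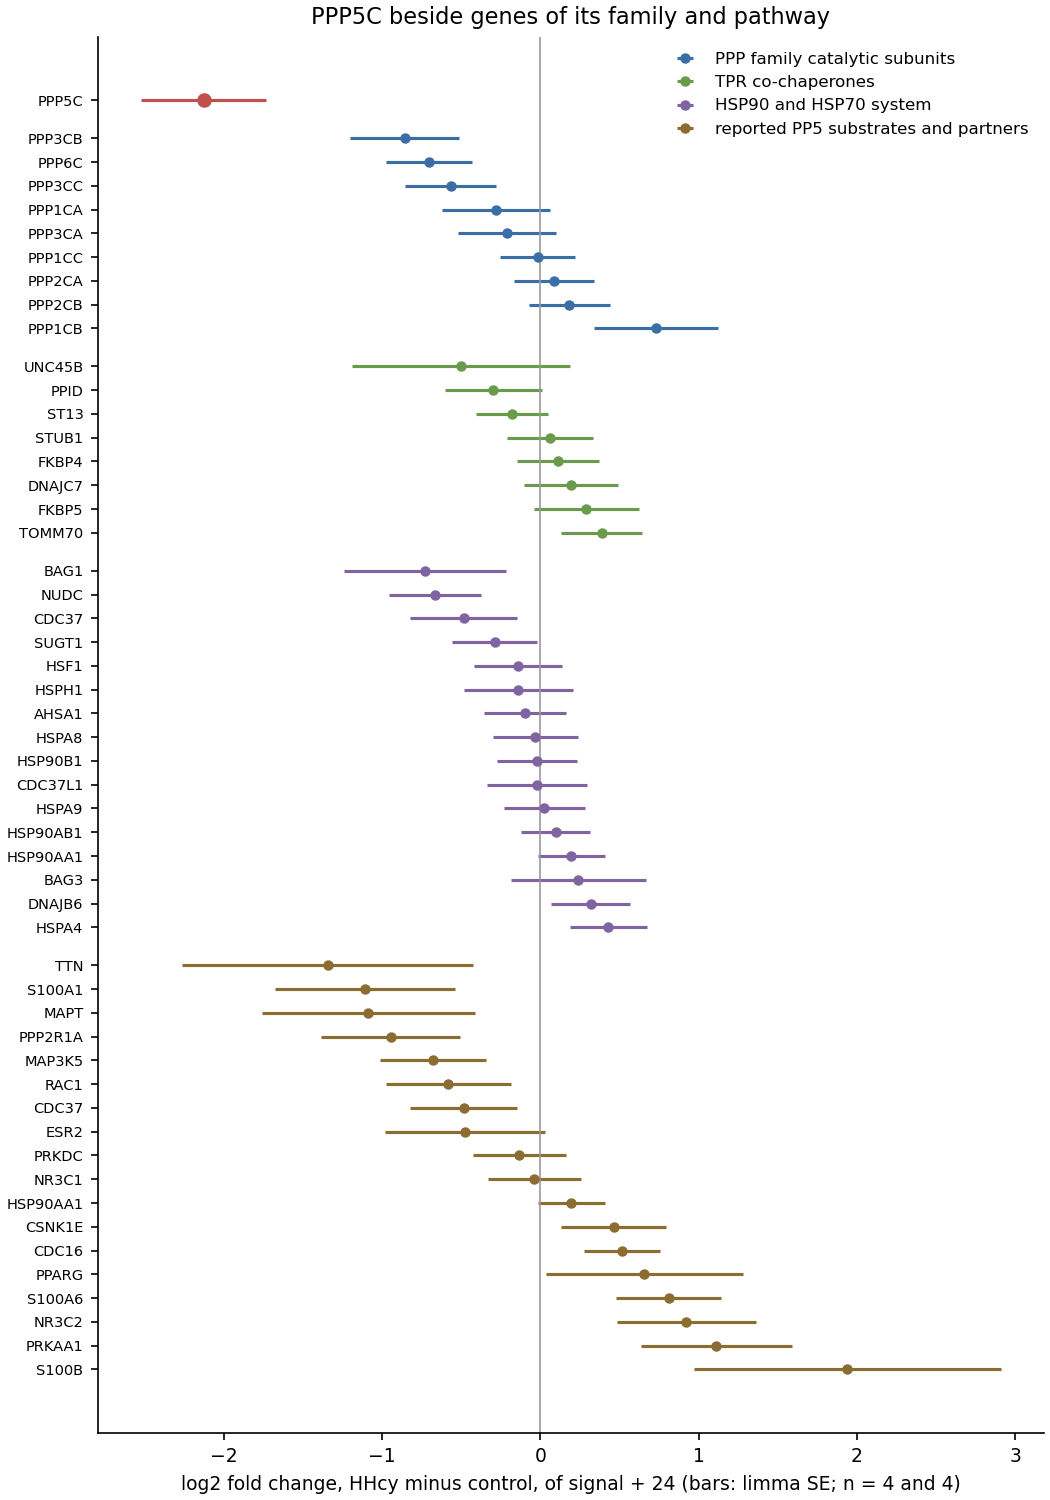
Log2 fold change, HHcy minus control, of log2(signal + 24) for PPP5C and for the tested genes of 4 lists, each by its brightest probe set (bars are limma standard errors, 4 dogs per group). PPP5C lies at -2.13, and the family members lie between -0.86 and 0.73.

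HSP90 releases PP5 from its inhibited state, and 16 of 26 genes of its chaperone system were tested, 10 of them below 0 in log2 fold change and 6 above, around a median of -0.026. HSP90AA1, the stress-inducible cytosolic HSP90, had signals of 24552, 24564, 18715 and 18764 on the controls and 27194, 26075, 21466 and 23973 on the HHcy arrays, which overlapped. Its log2 fold change was 0.20 ± 0.21 (limma SE, adjusted p 0.636), and -0.11 with median scaling. The constitutive form HSP90AB1 had 0.096 ± 0.22 (limma SE, adjusted p 0.834), -0.21 with median scaling, and -0.82 and -1.94 on other probe sets. CDC37, which brings kinases to HSP90 and from which PP5 removes a phosphate group, had signals of 352 to 443 on the controls. On HHcy 5 and HHcy 7 it was at 465 and 431, and on HHcy 6 and HHcy 8 at 202 and 170. Its log2 fold change was -0.48 ± 0.34 (limma SE, adjusted p 0.453). The lowest p of the list was that of NUDC, a co-chaperone of HSP90, with 419 to 947 on the controls and 322 to 335 on the HHcy arrays, which did not overlap. Its log2 fold change was -0.67 ± 0.29 (limma SE, adjusted p 0.266), -0.40 without control 2, and 0.12 and 1.99 on other probe sets.

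PP5 shares its way of docking onto chaperones with other TPR co-chaperones, of which 8 of 16 were tested, with a median log2 fold change of 0.086 and a range from -0.50 to 0.39. None passed, and the lowest p was that of TOMM70, the import receptor of the mitochondrial outer membrane, at 0.39 ± 0.25 (limma SE, adjusted p 0.431). FKBP4 and FKBP5, immunophilins that compete with PP5 for the receptor complex, had 0.11 ± 0.26 and 0.29 ± 0.33 (limma SE, adjusted p 0.838 and 0.650). Both were below 0 with median scaling, at -0.19 and -0.013, and another FKBP4 probe set had -0.95. PPID, the cyclophilin of the same complexes, had -0.30 ± 0.31 (limma SE, adjusted p 0.614).

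Of 32 reported substrates and partners of PP5, 18 were tested, and their median log2 fold change was -0.085, with 10 below 0 and 8 above and none passing. NR3C1 had signals of 390 to 907 on the controls and 411 to 579 on the HHcy arrays, with a log2 fold change of -0.038 ± 0.30 (limma SE, adjusted p 0.958), and 0.48 on another probe set. MAP3K5 had 216 to 577 on the controls and 155 to 305 on the HHcy arrays, with a log2 fold change of -0.68 ± 0.34 (limma SE, adjusted p 0.314). TTN, which encodes titin, had -1.34 ± 0.92 (limma SE, adjusted p 0.445). Its signal was 556 on HHcy 6 and at least 15054 on every other array, and its log2 fold change was -0.18 without HHcy 5 and HHcy 6. The 15 other tested TTN probe sets ran from -1.92 to 0.46, and none passed (smallest limma adjusted p 0.199).

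Calcium-binding S100 proteins can activate PP5 in the test tube. S100A1, the S100 protein of cardiac muscle, had 4659 to 4983 on the controls and 2670, 486, 3655 and 5181 on HHcy 5 to HHcy 8. Its log2 fold change was -1.11 ± 0.57 (limma SE, adjusted p 0.328), and -0.16 without HHcy 5 and HHcy 6. S100A6 had 1824 to 3230 on the controls and 2335 to 7100 on the HHcy arrays, with a log2 fold change of 0.81 ± 0.33 (limma SE, adjusted p 0.241). S100B had 1.94 ± 0.97 (limma SE, adjusted p 0.316), with a signal of 2281 on HHcy 6 and 4.98 to 92.1 on the other arrays. PRKAA1, a catalytic subunit of the energy sensor AMPK, which PP5 can dephosphorylate, had 1.11 ± 0.48 (limma SE, adjusted p 0.258), with groups that overlapped.

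Downstream of PP5, 11 genes of the ASK1 and stress kinase pathway had a median log2 fold change of 0.17, and -0.14 with median scaling. MAPK14, the p38 alpha kinase, had 1.19 ± 0.36 (limma SE, adjusted p 0.167), from 147 to 414 on the controls to 360 to 745 on the HHcy arrays, where HHcy 8 lay below control 1, and 1.35 on another probe set. Among 14 tested targets of the glucocorticoid receptor the median was -0.14, with 6 above 0 and 8 below, and none passed. The metallothionein MT2A had 1.46 ± 0.45 (limma SE, adjusted p 0.170) and the forkhead factor FOXO1 -1.41 ± 0.53 (limma SE, adjusted p 0.216). PIK3R1, a regulatory subunit of PI3 kinase, had -0.57 ± 0.23 (limma SE, adjusted p 0.242), with every HHcy array below every control array, and its other probe sets had -1.73 and -1.36. TSC22D3, a classic glucocorticoid-induced gene, had -0.55 ± 0.32 (limma SE, adjusted p 0.382).

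Genes whose pattern was most like that of PPP5C were ranked by Pearson's r of log2(signal + 24) over the 8 arrays, among 7287 other tested probe sets with 1 symbol. The closest was C18H7orf25 (r = 0.950), followed by the ribosomal protein RPL26 (r = 0.933), the nuclear envelope protein SUN1 (r = 0.928), the importin IPO5 (r = 0.923), the tight junction protein TJP1 (r = 0.919) and the secreted hormone STC1 (r = 0.919). These r values describe 8 arrays in 2 groups that did not overlap, and they largely restate that split. Each of these 6 genes had every HHcy array below every control array, with log2 fold changes from -0.98 for STC1 to -0.39 for IPO5, smaller than that of PPP5C, and none passed (limma adjusted p 0.151 to 0.437). Other probe sets of RPL26 and SUN1 had 0.17 and 0.89.

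The ranking was repeated within groups. On deviations from the group means, the closest genes were LOC475080 (r = 0.965), LOC609026 (r = 0.949), NUDCD1 (r = 0.949), EEF1E1 (r = 0.942), COL1A1 (r = 0.938) and ZAR1L (r = 0.935). None of them belonged to the 6 above. They are the highest r among 7287 probe sets over 8 arrays, and the HHcy values of PPP5C behind them all lay below the yardstick median, so no covariation is read from them. The collagen COL1A1, on the probe set concerned, had a log2 fold change of 2.29 ± 0.49 (limma SE, adjusted p 0.119), higher in HHcy. Its brightest probe set had 1.59.

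**Figure D4:**
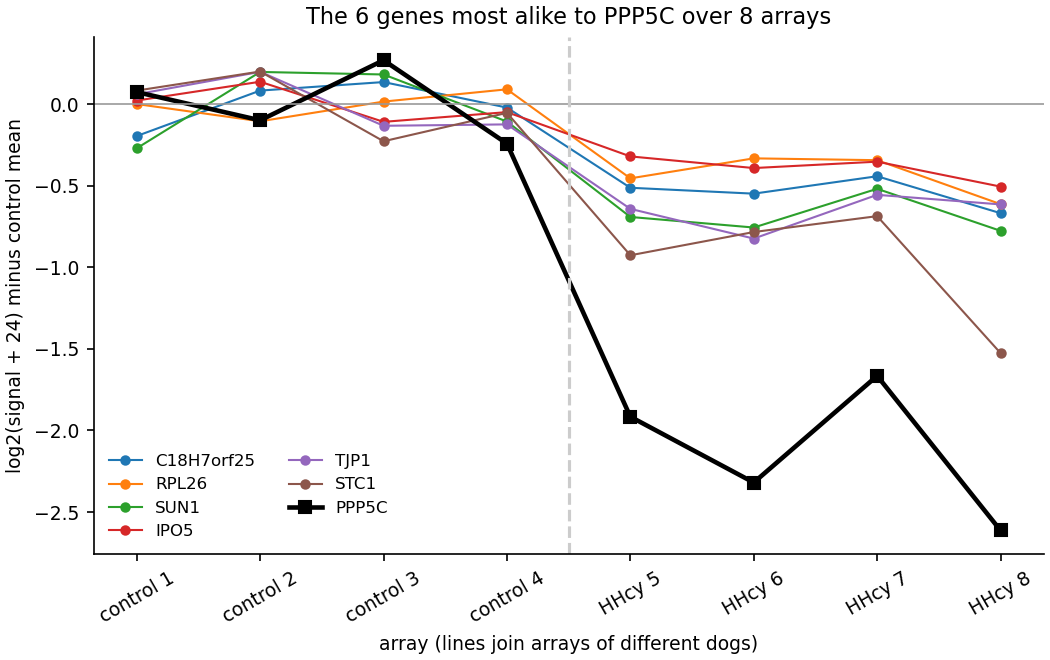
Log2(signal + 24) minus the control mean on each array, for PPP5C (black squares) and the 6 genes with the highest r with it over the 8 arrays. All 7 lie below their control means on the HHcy arrays, and PPP5C has the lowest values there.

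The neighbours of PPP5C on the chromosome, 5 protein-coding genes on each side in the RefSeq table, gave 3 that were measured. CCDC8 on one side had a log2 fold change of -0.23 ± 0.35, and HIF3A and CCDC61 on the other had 0.56 ± 0.39 and 0.031 ± 0.43 (limma SE, adjusted p 0.744, 0.455 and 0.976). HIF3A encodes an alpha subunit of the hypoxia-inducible factors and lies next to PPP5C.

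Over the settings tried, the PPP5C log2 difference ran from -2.77 to -1.20. The groups did not overlap, so left-out arrays and other pseudocounts could not turn its sign. PPP5C was also picked on this contrast, so nothing is read from the shared direction. Leaving out 1 array at a time gave -2.28 to -1.97, the values nearest to 0 and farthest from it coming without HHcy 8 and without HHcy 7. Median and quantile scaling gave -2.43 and -2.30.

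**Figure D5:**
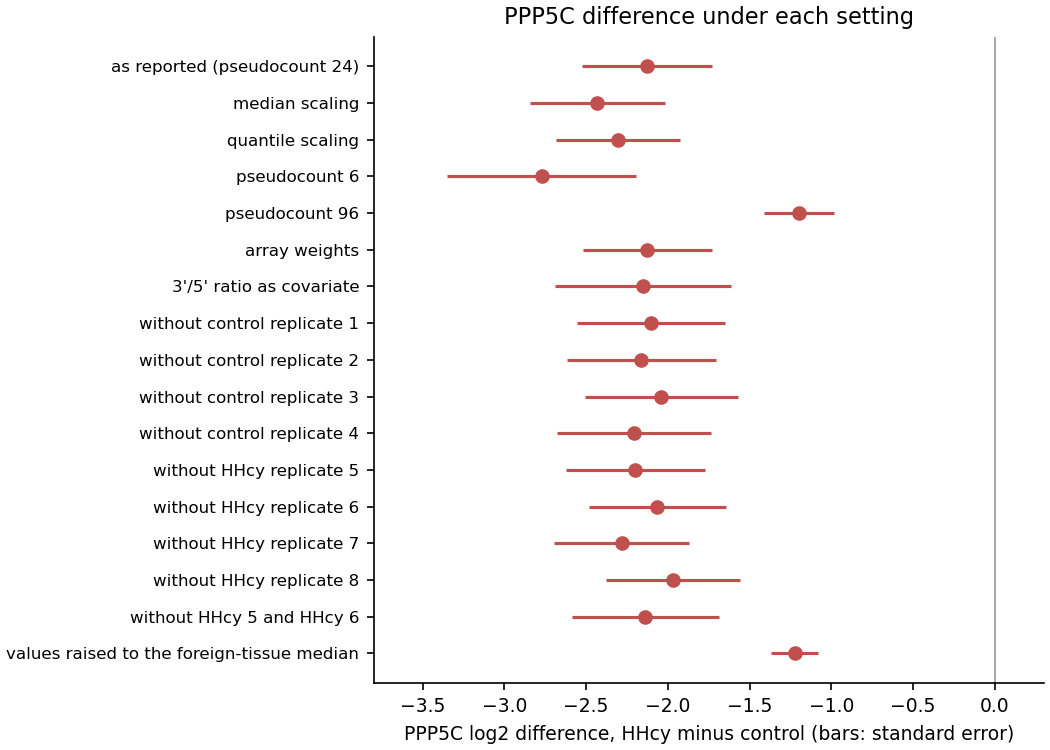
Log2 difference of PPP5C, HHcy minus control, under each scaling, pseudocount, covariate and set of arrays (points, with standard errors as bars). The values lie between -2.77 and -1.20, and the ones nearest to 0 are those in which dim values are lifted most. For values raised to the foreign-tissue median, the bar holds no spread of PPP5C in HHcy, since every HHcy value was replaced.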

How the data were processed

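Each deposited value is the intensity of 1 probe set, not on a log scale. The submitters' processing notes name MAS5 as the tool, without a version in the sources used here. Their trimmed mean (2% off each end) was 500.08 to 500.10 on every array, so no scaling was added. The labels describe separate dogs and give no batch.

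The members and lists were chosen with earlier results of these data known. The 77 control probe sets and the dimmest 40% by mean log2 value were left out. Groups were compared by limma (version 3.58.1, R 4.3.3; lmFit, eBayes with intensity trend) on log2(signal + 24), 24 being the 20th percentile of all values, with Benjamini-Hochberg adjustment at 0.05. Tests were tried on simulated data. A gene is given by its brightest probe set. Named are the genes most alike, chromosomal neighbours, PPP and TPR genes, PP5 partners and the 3 lowest p per list, of which the text gives at least the lowest for each PP5 list it reports. Alternatives were scaling, pseudocounts, filters, variance models, array weights, RNA quality and left-out arrays. Gene names come from the platform annotation, and no probe sequence was used here. The separate result of 1 of the 9 gene lists is not reported here.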

Additional observations from a re-analysis of the deposited data

Results flagged for a closer look

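Of 88 groups of 4 arrays examined for 1 array far from the others, 5 stood out, and chance gives about 1 in 20. Neither group did so for PPP5C. On the scale of log2(signal + 24), TTN was at 9.18 on HHcy 6, with the next HHcy array at 13.9. NUDC was at 9.92 on control 2, with the next control at 8.92. CDC37 was at 8.56 on control 2, with the next control at 8.84. NR3C1 was at 8.77 on HHcy 5, with the next HHcy array at 9.16, and PRKAA1 was at 6.82 on HHcy 5, with the next at 7.91.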

How the results depend on the processing

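No paired analysis was possible because the labels number the controls 1 to 4 and the HHcy dogs 5 to 8. PPP5C moved by more than its replicate spread with pseudocounts of 6 (-2.77) and 96 (-1.20) and with values raised to the yardstick median (-1.22). The percentile difference (-47.5 points) has another unit and was not compared with that spread. Without each array in turn the log2 difference of PPP5C ran from -2.28 to -1.97. PPP5C was too dim to be kept with a pseudocount of 6, with the dimmest 60% left out and without any 1 control. Its values with a pseudocount of 6 and without any 1 control come from unfiltered fits, and with the dimmest 60% left out it has none. The 14 calls over all probe sets became 7 with quantile scaling, 9 with the dimmest 60% left out, 76 with array weights, 5 with the 3'/5' covariate, 5 without HHcy 5 and HHcy 6, and 3 to 31 without each array in turn. Some settings also called probe sets lower in HHcy. These were 15 with array weights, 9 without HHcy 8, 2 with median scaling, 1 with no intensity trend and 1 without HHcy 6. Which probe sets these were is not given here, and the remaining settings called none lower. Among the 91 list genes 0 passed under each alternative run. Of 41 list, neighbour and like genes refitted in each setting, COL1A1 passed in 1, without HHcy 8 (2.78, adjusted p 0.0195, range 0.0195 to 0.839). None of the log2 fold changes that turned sign had passed. With median scaling these were PPP2CA (-0.22), PPP2CB (-0.12), HSP90AA1 (-0.11), HSP90AB1 (-0.21), FKBP4 (-0.19), FKBP5 (-0.013), PPM1G (-0.16) and CCDC61 (-0.27), and with quantile scaling PPP1CC (0.027) and CCDC61 (-0.27). With array weights they were PPP1CA (0.056), PPP1CC (0.087), FKBP4 (-0.0042), PPM1G (-0.024) and NR3C1 (0.14). With the 3'/5' covariate they were PPP1CA (0.38), PPP1CC (0.21), PPP2R1A (0.00025), FKBP4 (-0.21), PPM1G (-0.15), NR3C1 (0.16), TTN (0.55) and S100A1 (0.24). Without HHcy 5 and HHcy 6 they were PPP1CA (0.15), PPP1CC (0.11), FKBP4 (-0.14), PPID (0.0037) and NR3C1 (0.063). On other probe sets they were PPP1CC (0.073), PPP3CB (0.50), PPP2R1A (1.02 and 0.034), HSP90AB1 (-0.82 and -1.94), FKBP4 (-0.95), NUDC (1.99 and 0.12), NR3C1 (0.48 and 0.25), TTN (0.46), RPL26 (0.17) and SUN1 (0.89). Without each array in turn, PPP1CC ran from -0.099 to 0.15, PPP2CA from -0.071 to 0.25, FKBP4 from -0.017 to 0.25, NR3C1 from -0.18 to 0.21, PPM1G from -0.029 to 0.26, CCDC8 from -0.51 to 0.0022 and CCDC61 from -0.21 to 0.27. The cause of these changes was not tested. With 4 arrays per group and PPP5C near the dim end in HHcy, the size of its difference is the least certain value.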

Other observations

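The 25 other probe sets with a log2 fold change at least as low as that of PPP5C were named after their values were seen. Of them, 9 had no single symbol, and 16 belonged to MB, ACTB, MYL3, MYL7, MYH7, TXNIP, FAU, ATP5MC2, TNNT2, CMYA5, MAP3K15, NDUFB8, IVD, UQCRC2, CHCHD2 and ANKRD1. None of the 25 passed limma's adjusted threshold. For several of these genes the probe set concerned was not the brightest: myoglobin MB had -3.58 here and -1.34 on its brightest probe set, the myosin heavy chain MYH7 -2.60 and -0.44, the thioredoxin inhibitor TXNIP -2.53 and 0.46, and isovaleryl-CoA dehydrogenase IVD -2.23 and -0.10. PPP5C has 1 probe set, so no such comparison could be made for it.

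Without HHcy 5 and HHcy 6, 23 of the 25 came nearer to 0, the light chain MYL3 from -2.78 to -0.60 and troponin T TNNT2 from -2.43 to -0.38, and 8 of the 25 stayed at or below -2. PPP5C was at -2.13 with all arrays and at -2.14 without that pair. Its HHcy values all lay below the yardstick median, and it was picked on this contrast. Nothing is read from its staying the same.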
